A study of Homo sapiens with 2 samples.

Results

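The genes described are the cytosolic HSP90 and HSP70 chaperones HSP90AA1, HSP90AB1, HSPA8, HSPA1A and HSPA1B, the endoplasmic reticulum (ER) chaperones HSP90B1 and HSPA5, and the mitochondrial chaperones TRAP1, HSPD1 and HSPE1. They were chosen by name, 10 of the 59026 genes that could be matched to the GENCODE v44 annotation, and each was summed over all of its listed transcripts. The data were 2 RNA-seq libraries of HEK293 Flp-In T-Rex cells, numbered replicate 1 and replicate 2. HEK293 is an established line of human embryonic kidney origin. Its Flp-In T-Rex version holds a site for inserting a transgene under tetracycline control. No treatment was named in the labels, cells were kept at 37 °C in high-glucose DMEM with 10% foetal calf serum, and rRNA had been removed from total RNA before sequencing. Whether the libraries came from separate cultures was not stated, so the spread between them may be technical, and with 1 group of 2 libraries no test between conditions could be made.

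Heat shock proteins of these families bind unfolded or partly folded proteins and use ATP to help them fold or to pass them on. HSP70 proteins take up exposed stretches early, HSP90 proteins act later on kinases, receptors and other clients, and the chaperonin of HSPD1 with its lid HSPE1 encloses proteins within mitochondria. In the cytosol one set of genes is expressed at all times, and another set is induced by heat through the heat shock factor HSF1. The ER members are induced instead when unfolded proteins collect in the ER.

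The members were expressed at high levels in both libraries, with a single exception. Together they held 0.724% of all estimated counts in replicate 1 and 0.687% in replicate 2. In the tables HSPA1B, a stress-inducible HSP70, had the highest level and HSPA1A, which encodes the same protein, was close to 0, although reads of this pair are hard to divide. Between these lay HSP90AB1, HSPA8, HSPD1, HSP90AA1, TRAP1, HSP90B1, HSPE1 and HSPA5, in falling order. Levels compare genes only roughly, since several ratios between genes moved when other lengths or transcripts were used. They are estimated counts divided by full transcript length, without effective length correction, and scaled to 1000000 per library. The 7SL and 7SK RNAs (RN7SL1, RN7SL2 and RN7SK) alone took 47.2% and 49.7% of that scale, so a level would be higher in a scale limited to mRNA.

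Promoter sequences are shown first, since genes induced by heat and genes induced by ER stress are known for different control elements. The best known control elements are the heat shock element, read here as the unit GAANNTTC or TTCNNGAA, and the ER stress element, read as CCAAT and CCACG with 9 bases between, N being any base. RefSeq promoter windows reaching from 250 bases before a start to 50 after it were searched on both strands, 14 windows for the 10 members and 35116 windows in all. At least 1 of the heat shock units was in 13.5% of all windows, and the ER element in 0.0769%. Overlapping units were counted separately. The 250 bases before the start are given for 5 members as examples, an inducible HSP70, its constitutive relative, an inducible HSP90 and both ER members, with heat shock units in capitals for HSPA1B, HSPA8 and HSP90AA1 and ER elements in capitals for HSPA5 and HSP90B1 (RefSeq, GRCh38.p14). The HSPA1B stretch is chr6:31827488-31827737 on the plus strand, HSPA8 is chr11:123062137-123062386 on the minus strand, and HSP90AA1 is chr14:102087045-102087294 on the minus strand. The HSPA5 stretch is chr9:125241344-125241593 on the minus strand and HSP90B1 is chr12:103930160-103930409 on the plus strand.
HSPA1B: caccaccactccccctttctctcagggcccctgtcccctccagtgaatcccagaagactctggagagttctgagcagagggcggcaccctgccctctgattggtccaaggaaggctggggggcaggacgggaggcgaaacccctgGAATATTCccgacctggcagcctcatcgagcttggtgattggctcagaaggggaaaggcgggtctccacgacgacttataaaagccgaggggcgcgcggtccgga
HSPA8: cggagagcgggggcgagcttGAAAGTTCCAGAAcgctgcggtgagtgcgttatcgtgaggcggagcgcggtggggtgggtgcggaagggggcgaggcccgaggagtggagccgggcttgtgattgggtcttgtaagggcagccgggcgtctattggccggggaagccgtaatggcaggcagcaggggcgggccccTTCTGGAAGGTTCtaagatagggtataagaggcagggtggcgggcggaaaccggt
HSP90AA1: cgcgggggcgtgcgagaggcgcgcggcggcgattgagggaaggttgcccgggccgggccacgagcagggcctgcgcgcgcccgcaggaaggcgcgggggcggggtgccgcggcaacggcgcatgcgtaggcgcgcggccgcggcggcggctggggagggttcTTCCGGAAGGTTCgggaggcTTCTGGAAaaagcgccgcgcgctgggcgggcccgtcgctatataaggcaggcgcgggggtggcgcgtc
HSPA5: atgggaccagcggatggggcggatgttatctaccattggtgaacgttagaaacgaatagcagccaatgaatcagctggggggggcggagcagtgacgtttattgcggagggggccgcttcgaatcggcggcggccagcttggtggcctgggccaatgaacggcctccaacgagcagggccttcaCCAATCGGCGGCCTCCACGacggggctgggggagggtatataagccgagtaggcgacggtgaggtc
HSP90B1: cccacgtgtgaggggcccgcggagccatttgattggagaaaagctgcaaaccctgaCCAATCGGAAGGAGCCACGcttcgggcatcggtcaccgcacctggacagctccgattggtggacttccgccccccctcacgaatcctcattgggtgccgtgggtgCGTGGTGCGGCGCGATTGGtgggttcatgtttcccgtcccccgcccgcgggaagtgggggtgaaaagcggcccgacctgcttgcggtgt

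Heat shock units were found in windows of 6 members. HSPA1A and HSPA1B had 1 each, HSPA8 and 1 of the 3 windows of HSP90AB1 had 4, and 1 of the 2 windows of HSP90AA1 and 1 of the 2 of HSPD1 had 3. A longer run, in which a unit of one kind overlaps a unit of the other by 3 bases, occurred in 0.49% of all windows and in those of HSPA8, HSP90AB1, HSP90AA1 and HSPD1. The ER element was found once in HSPA5 and in 2 copies in HSP90B1, and in no window of the other members. TRAP1 and HSPE1 held neither element in these windows, which says only that these letters were not there. The exact letters TATAAA, 1 form of the TATA box, stood in the windows of HSPA1A and HSPA1B and in 11.5% of all windows. Other forms of that box were not searched. These matches describe sequence, and whether a factor was bound was not measured.

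Of the constitutive pair, HSP90AB1 (chromosome 6, 44246166 to 44253888, plus strand), the HSP90 beta of the cytosol, had levels of 573 and 483 in replicates 1 and 2, or 528 ± 63.6 (SD, n = 2). It ranked 108 among 19885 protein-coding genes. HSPA8 (chromosome 11, 123057489 to 123063230, minus strand), the HSP70 that serves unstressed cells, had levels of 401 and 314, or 357 ± 62.0 (SD, n = 2). Both libraries therefore put the HSP90 member of this pair above the HSP70 member, by more than their summed SDs.

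The inducible class was uneven. HSPA1B (chromosome 6, 31827738 to 31830254, plus strand) had levels of 750 and 839, or 794 ± 63.0 (SD, n = 2), and ranked 80 among protein-coding genes. HSP90AA1 (chromosome 14, 102080742 to 102139699, minus strand), the HSP90 alpha of the cytosol, had levels of 317 and 280, or 298 ± 26.2 (SD, n = 2). HSPA1A (chromosome 6, 31815543 to 31817946, plus strand) had levels of only 0.204 and 0.182 and ranked 14080. As the tables divide the reads of this pair, HSPA1B was the highest of all members in both libraries and its neighbour on the chromosome the lowest. Both ranks rest on that division, which is uncertain.

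The ER pair also differed within itself. HSP90B1 (chromosome 12, 103930107 to 103953931, plus strand), the HSP90 of the ER lumen, had levels of 251 and 186, or 219 ± 45.8 (SD, n = 2). HSPA5 (chromosome 9, 125234853 to 125241382, minus strand), the HSP70 known as BiP, had levels of 40.3 and 42.0, or 41.1 ± 1.19 (SD, n = 2). HSP90B1 was 6.23-fold and 4.44-fold higher than HSPA5 in replicates 1 and 2. HSPA5 ranked 1714 among protein-coding genes, lower than every other member except HSPA1A. Only 1 of its 15 GENCODE v44 transcripts was listed.

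Mitochondrial members were intermediate. HSPD1 (chromosome 2, 197486584 to 197516737, minus strand), the HSP60 chaperonin, had levels of 387 and 286, or 337 ± 71.1 (SD, n = 2). TRAP1 (chromosome 16, 3651639 to 3717553, minus strand), the HSP90 of mitochondria, had levels of 260 and 278, or 269 ± 12.5 (SD, n = 2). HSPE1 (chromosome 2, 197500140 to 197503449, plus strand), the HSP10 lid, had levels of 105 and 74.7, or 90.1 ± 21.7 (SD, n = 2). HSPD1 was above TRAP1 in both libraries, but by less than their summed SDs, and both stood above HSPE1.

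**Figure D1:**
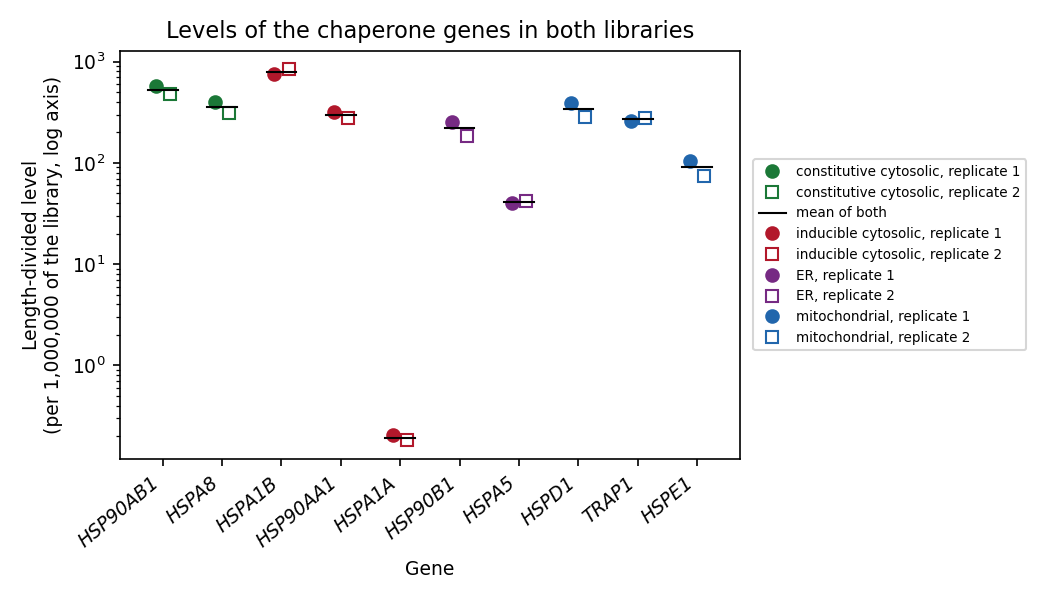
Length-divided level of each gene (y axis, per 1000000 of the library, log axis) by class, with filled circles for replicate 1, open squares for replicate 2 and a black line for their mean. As the tables divide the pair, HSPA1B is highest at 750 and 839 and HSPA1A lies near 0.2, and 9 of the 10 genes lie above 40.

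All 45 pairs of members had the same order in both libraries. In 39 of these the means were further apart than the SDs added together. The 6 pairs that did not pass were HSPA8 with HSPD1, HSPA8 with HSP90AA1, HSPD1 with HSP90AA1, HSPD1 with TRAP1, HSP90AA1 with TRAP1, and TRAP1 with HSP90B1. The middle of the order, from HSPA8 down to HSP90B1, was therefore a run of neighbours that could not be separated, whereas HSP90AB1, HSPE1, HSPA5 and, as the tables divide them, HSPA1B and HSPA1A each stood apart from their neighbours. Only HSPA5 and HSPE1 among the pairs that passed changed order when counts were not divided by length, with 4430 normalised counts for HSPA5 against 1414 for HSPE1, whose transcripts are short. Normalised counts are estimated counts over 1 size factor per library.

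By class, the 3 inducible genes held 34.6% and 40.2% of the summed level of the members, or 37.4% ± 3.98 (SD, n = 2), nearly all from HSPA1B and HSP90AA1. The constitutive pair held 31.6% and 28.6%, the mitochondrial genes 24.4% and 23.0%, and the ER pair 9.44% and 8.20%. The order of the 4 classes was the same in both libraries. By family, the 4 HSP90 genes summed to levels of 1401 and 1227, the 4 HSP70 genes to 1191 and 1195, and HSPD1 with HSPE1 to 492 and 361. The HSP70 sum was nearly the same in the libraries, with HSPA8 lower and HSPA1B higher in replicate 2.

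Ratios between partners ran as follows. HSP90AB1 was 1.81-fold and 1.73-fold above HSP90AA1, a log2 ratio of 0.82 ± 0.0475 (SD, n = 2), and this ratio varied little between the libraries. HSPA8 was lower than the sum of HSPA1A and HSPA1B, with log2 ratios of -0.90 and -1.42. HSPE1 was lower than HSPD1, with log2 ratios of -1.88 and -1.94. In the mitochondrial chaperonin the lid was thus 3.67-fold and 3.83-fold below the barrel subunit at the level of RNA, a ratio that was close in both libraries. Its size depended on the processing. The log2 ratio of HSPE1 to HSPD1 was -3.76 without division by length and -1.48 with an effective length. The overlap of these genes on opposite strands, with the strand setting unknown, limits it too. Reads of mRNA do not give the ratio of the proteins.

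HSPA1A and HSPA1B need the closest look, since they are a tandem pair with nearly the same coding sequence. HSPA1A was given 10.21 and 10.2 estimated counts, and HSPA1B 49435 and 61964. HSPA1A thus held 0.0206% of the pair in replicate 1 (exact 95% interval 0.00970% to 0.0372%) and 0.0165% in replicate 2 (0.00774% to 0.0297%). These intervals cover counting error only, not the division of shared reads. All counts of HSPA1A were on HSPA1A-202, a model of 2 exons, and HSPA1A-201, its single-exon canonical transcript, was listed at 0 in both libraries, which at 3 counts allows up to 0.00607% and 0.00484% of the pair.

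The coding sequences of HSPA1A-201 and HSPA1B-201 are 1926 nt each and differ at 4 bases, so that 99.8% of bases are identical and both encode the same protein of 641 residues. Counted from 1 at the first base of the coding sequence, with the HSPA1A base first, the differences are G1710T, G1860C, C1905T and A1920G. The stretch from position 1846 to 1905 holds G1860C and C1905T, shown in capitals, and shows how little there is to tell the genes apart (GENCODE v44 transcripts, GRCh38, plus strand, each listed in an earlier version in the deposited tables).
HSPA1A-201: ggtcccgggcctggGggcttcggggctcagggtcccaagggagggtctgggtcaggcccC
HSPA1B-201: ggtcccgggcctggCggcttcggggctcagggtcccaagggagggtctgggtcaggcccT

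Outside the coding part the transcripts differ. Of the 2351 words of 50 nt in HSPA1A-201, 1766 (75.1%) also occur in HSPA1B-201 and 585 do not. All 165 words inside its 5′ UTR and all 211 inside its 3′ UTR were absent from HSPA1B-201, compared with 117 of 1877 inside the coding part. Reads of 50 nt from 24.9% of the words of HSPA1A-201 could therefore be told from HSPA1B-201, and the table gave that transcript no counts. Their promoters share sequence too: 77 of the 281 words of 20 nt in the HSPA1A window recur in that of HSPA1B. A further 4479 listed transcripts had no GENCODE v44 match and held 3.13% and 3.17% of the counts. Whether any of them is a copy of HSPA1A or HSPA1B was not tested. The HSPA1B level is best read as that of the pair, with the division between them uncertain.

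**Figure D2:**
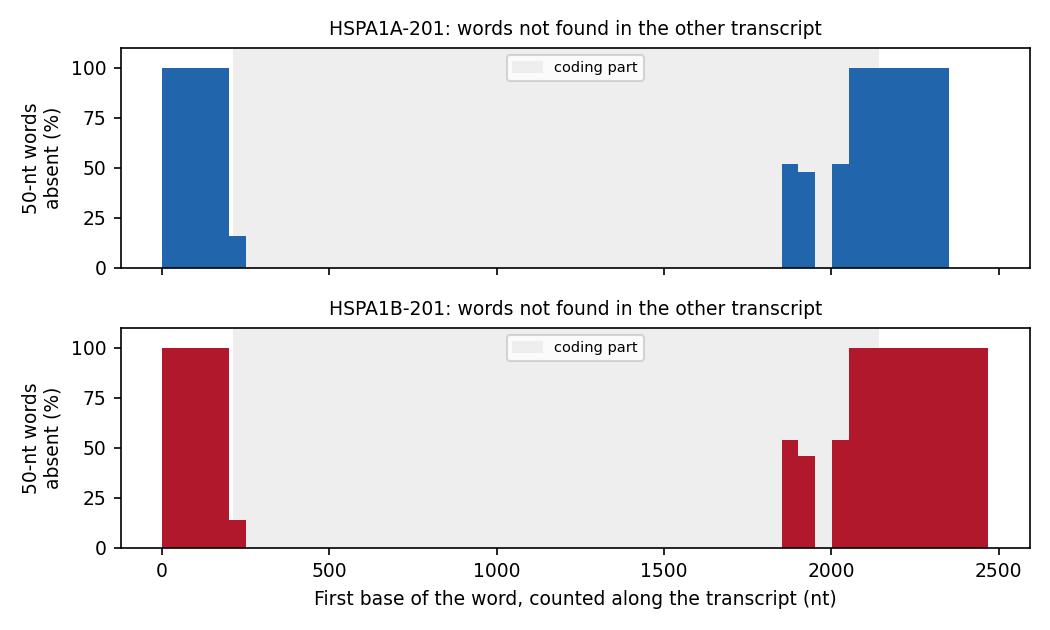
Percent of 50-nt words absent from the other transcript (y axis), in bins of 50 nt along HSPA1A-201 and HSPA1B-201 (x axis, first base of the word), with the coding part shaded grey. Both ends of each transcript reach 100%, while most of the coding part is at 0.

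The lncRNA ENSG00000285565, on the same strand, overlaps HSPA1B by 1421 bp and had 3676 and 3287 normalised counts. Its transcript shares 67.6% of its 50-nt words with HSPA1B-201. Reads of this overlap could belong to either gene. No 50-nt word was shared between HSPA8-201 and HSPA1B-201, nor between HSP90AA1-201 and HSP90AB1-203. The leading transcripts of the constitutive and inducible members of each family thus had no identical stretch of that length. Matches with mismatches were not examined.

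The members had 90 listed transcripts, of which 19 had no counts in either library and 12 had counts in a single library. All 8 members with several listed transcripts kept their leading transcript from one library to the other, and the leader differed in 18.6% of the 14529 genes compared. The genes compared were not matched to the members by counts. HSPA1A was among the 8 with only 10.21 and 10.2 estimated counts. HSPA1B and HSPA5 were listed with 1 transcript each.

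HSPA1A had all of its few counts on 1 of its 2 listed transcripts. Of the members with several transcripts above 0, HSP90AB1 was the least divided, with 98.0% and 97.3% of its normalised counts on HSP90AB1-203, the canonical transcript. Its 4 listed transcripts all encode 724 residues. HSP90AB1-203 starts at 44247101, at the RefSeq start whose window holds no heat shock unit. The window with 4 units belongs to a start 842 nt further downstream, inside the gene. HSP90AB1-202, which starts at 44247866 near it, took 0.949% and 1.43%.

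HSP90AA1 had 75.9% and 80.6% on HSP90AA1-201, which starts at 102087044, right at the window with heat shock units. HSP90AA1-202 starts at 102139686, far upstream, and encodes 854 residues that end in the 732 of HSP90AA1-201. It held 1.52% and 2.15%. HSP90AA1-204, annotated as a target of nonsense-mediated decay, held 16.9% and 9.64%, a difference between the libraries from 3354 to 1615 normalised counts. It shares 75.0% of its 50-nt words with HSP90AA1-201. The long form from the distal start was therefore minor in both libraries, and most counts belonged to the transcript from the proximal start.

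In HSPA8, HSPA8-201 led with 82.0% and 79.1%. This model begins at 123061332, which is 804 nt downstream of the RefSeq start. It lacks the separate first exon of the canonical HSPA8-224, which was listed at 0 in both libraries (exact 95% upper bounds 0.0176% and 0.0201%). These bounds cover counting error only, not the division of reads that match several transcripts. HSPA8-218 has another first exon and the same protein of 646 residues. It took 5.40% and 1.59%, and all but 2 of the 2137 words of HSPA8-201 occur in it. HSPA8-221, which starts at the RefSeq start at 123062136 and encodes 500 residues, held 3.90% and 9.91%. The minor transcripts of HSPA8 thus moved in opposite directions between the libraries while the leader changed little. Of the 2257 words of HSPA8-218, 122 are absent from HSPA8-201, and of the 1777 words of HSPA8-221, 123 are.

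The ER member HSP90B1 had 84.4% and 86.4% on HSP90B1-201, which encodes 803 residues. HSP90B1-203, in which exons 12 and 13 of HSP90B1-201 and the intron between them form 1 exon of 793 nt, held 9.23% and 7.56%. All 7 listed retained-intron transcripts of HSP90B1 together held 14.7% and 13.0%, the highest such share among the members by normalised counts.

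TRAP1 was the member whose composition differed most between the libraries. TRAP1-201, with 18 exons and 704 residues, held 50.3% (exact 95% interval 49.4% to 51.2%) in replicate 1 and 71.2% (70.5% to 72.0%) in replicate 2. TRAP1-202, which skips exon 2 of TRAP1-201 (159 nt, chromosome 16, 3690827 to 3690985) and encodes 651 residues, held 41.1% (40.3% to 42.0%) and 19.7% (19.0% to 20.3%). The gene total differed little, at 12537 and 13193 normalised counts. Of the 2003 words of TRAP1-202, 47 do not occur in TRAP1-201, compared with 218 of 2174 the other way, so the split rests on reads over exon 2 and its junctions. The intervals treat every count of the gene as assigned with certainty. They cover counting error only, not the division of shared reads, and are too narrow for that. TRAP1-201 nevertheless led in both libraries.

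HSPD1 and HSPE1 are neighbours that are read away from each other. HSPD1-201 starts at 197500274 on the minus strand and both main HSPE1 transcripts at 197500379 on the plus strand, with 104 bases between. HSPD1-201 held 90.3% and 88.3% of HSPD1. The canonical HSPD1-202, which starts 434 nt further along the gene and encodes the same 573 residues, held 0% (exact 95% upper bound 0.0178%) and 0.349%. The window with 3 heat shock units is that of HSPD1-202, and the window at the start of HSPD1-201 held none.

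HSPE1 was led by HSPE1-202 with 71.4% and 68.2%, and the canonical HSPE1-201 held 23.5% and 23.0%. HSPE1-202 has a last exon of 344 nt that runs through the intron between exons 3 and 4 of HSPE1-201, and encodes 101 residues in place of 102. The annotated spans of HSPD1 and HSPE1 overlap by 3310 bp on opposite strands, and the sources used here do not say whether the counting used strand. Without strand, reads of that overlap cannot be told apart. The readthrough gene HSPE1-MOB4 had 89.4 and 126.8 normalised counts.

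**Figure D3:**
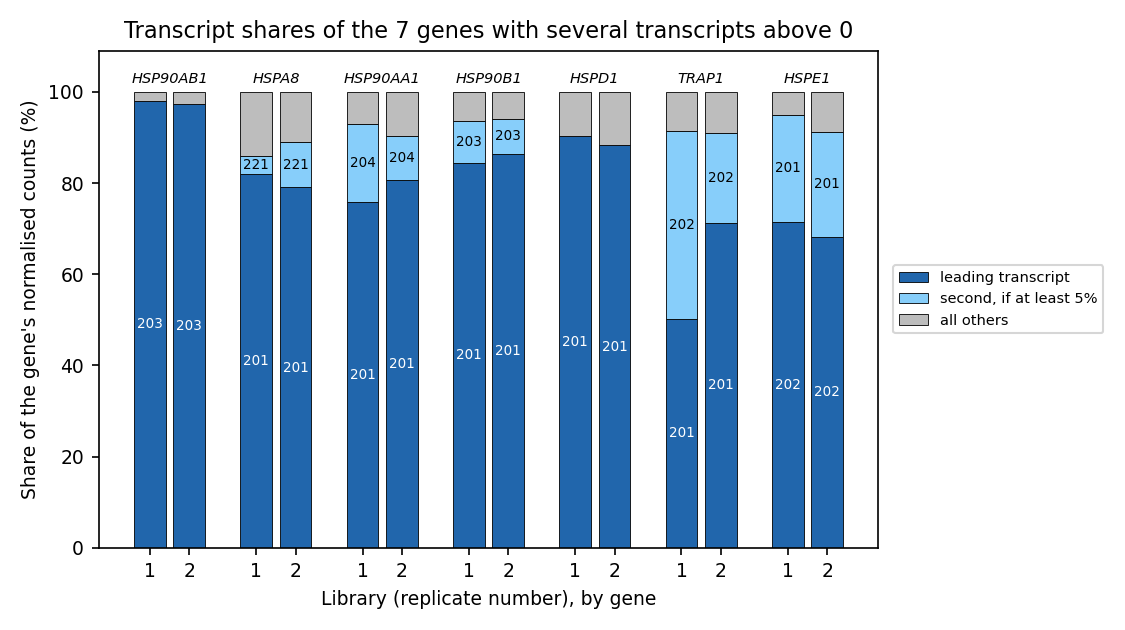
Share of each gene's normalised counts (y axis, %) on its leading transcript, on a second transcript with a mean of at least 5% and on all others, for replicates 1 and 2 of 7 genes. The numbers in the bars are the transcript numbers, and TRAP1 shows the widest gap, with TRAP1-201 at 50.3% and 71.2%.

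All listed transcripts of HSP90AB1, HSPA1A, HSPA1B and HSPA5 are protein-coding, so their share of 100% was set by the annotation. For the other members the share depends on which models were listed, such as 11 of 35 for HSP90B1 and 13 of 24 for HSPD1. Protein-coding transcripts held 94.1% and 94.0% of the counts of TRAP1. In HSPA8 they held 94.5% and 92.8%, in HSPE1 94.9% and 91.2%, and in HSPD1 90.5% and 89.1%. The lowest shares were those of HSP90AA1, with 80.4% and 86.3%, and of HSP90B1, with 85.3% and 87.0%. These members, one cytosolic and one in the ER, had the largest shares of undivided counts on transcripts of another type. Divided by length, the protein-coding share was 65.7% and 69.8% in HSP90AA1, 76.6% and 79.9% in HSP90B1 and 78.3% and 77.1% in TRAP1, so that HSP90AA1 stayed lowest in both libraries and the order of HSP90B1 and TRAP1 differed between them.

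Pseudogenes named after the members, copies of mRNA in the genome that can draw reads from their parent, were few in counts. Their 75 copies, of which 43 were above 0, summed to 1028 and 1078 normalised counts, or 0.533% and 0.624% of the members. The highest were HSP90AB3P with 284 and 300.3, HSP90AB2P with 183 and 217, and HSPD1P1 with 126 and 92.1. HSPE1 was the exception, since its 26 pseudogenes amounted to 5.18% and 7.72% of its own counts, and to 9.68% and 14.5% of its length-divided level.

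None of the 10 members differed over 2-fold between the libraries, and 5.23% of the 19110 genes that averaged 10 or more normalised counts did. Among the 13992 protein-coding genes of these the share was 2.77%. At a mean of at least 100, which 9 members reached, it was 1.18% of 12669 genes. On the log2 scale (value + 1), differences of replicate 2 from replicate 1 ran from -0.52 for HSPE1 to 0.14 for HSPA1B. The 7 members lower in replicate 2 were HSPE1, HSPD1, HSP90B1, HSPA8, HSP90AB1, HSP90AA1 and HSPA1A, and the 3 higher were HSPA1B, TRAP1 and HSPA5. The median was -0.26 for the members and -0.06 for all genes. With only 2 libraries this shift was not tested.

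Single transcripts moved more than genes. Of the 59 member transcripts that averaged 10 or more, 7 (11.9%) differed over 2-fold, beside 29.6% of the 67167 transcripts compared. HSPA8-218 fell from 1197 to 270 normalised counts and HSPA8-203 from 466 to 168, and HSP90AA1-204 also passed. The other 4 (TRAP1-207, TRAP1-215, HSPA8-208 and HSPD1-202) were at 0 in 1 library and under 70 in the other. The members' share was below that of all transcripts compared, which were not matched to the member transcripts by counts.

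**Figure D4:**
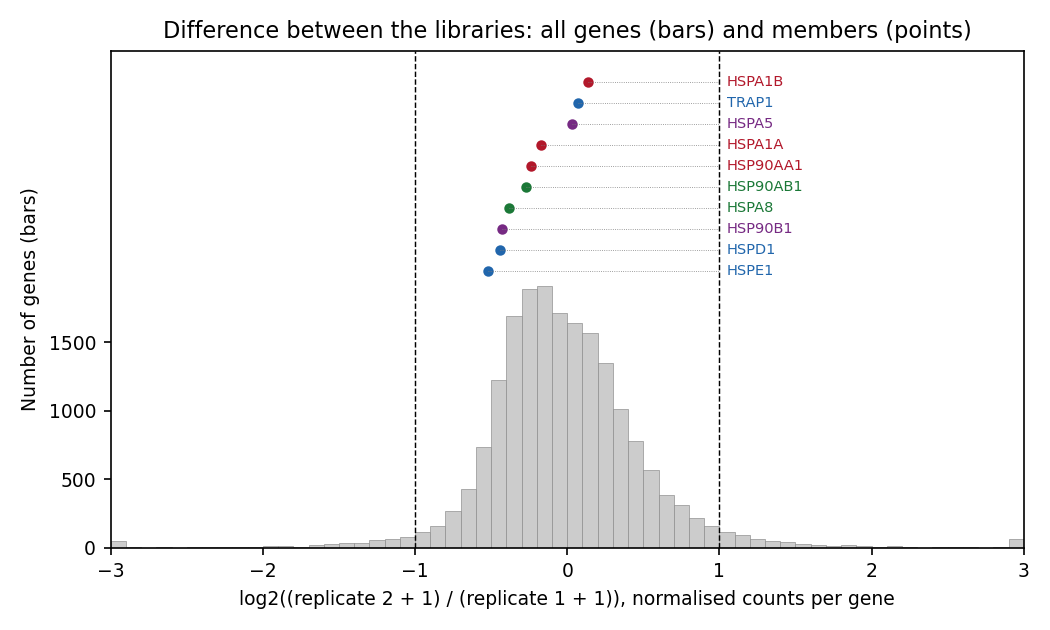
Histogram of the log2 difference of replicate 2 from replicate 1 (x axis) over 19110 genes (bars, number of genes on the y axis; the end bars hold all values beyond them), with each member as a point coloured by class (green constitutive, red inducible, purple ER, blue mitochondrial) above the bars. All 10 points lie between the dashed lines at 2-fold, from -0.52 to 0.14.

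The lists of genes that work with these chaperones had lower median levels than the members, while single genes such as CANX and STUB1 reached the members' range. The median level was 284 for the members, 54.7 for 13 HSP90 co-chaperones, 16.8 for 15 cytosolic HSP70 partners, 17.9 for 10 ER partners, 43.0 for 8 mitochondrial partners and 15.4 for 12 other HSP70 genes. Among co-chaperones, the immunophilin FKBP4 had levels of 199 and 212, PTGES3 (p23) 205 and 147, the ATPase activator AHSA1 143 and 122, and FKBP5 was lowest with 12.9 and 11.3. All of these were below HSP90AB1 in both libraries.

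Among the HSP70 partners, the ubiquitin ligase STUB1 had levels of 295 and 325, ST13 (Hip) 170 and 128, DNAJB6 104 and 78.2, and DNAJA4 was lowest with 0.270 and 0.253. In replicate 2 STUB1 was above HSPA8. In the ER list the lectin chaperones led, CANX with 386 and 393 and CALR with 139 and 131, followed by PDIA4 with 97.1 and 94.1, and DNAJB9 was lowest with 10.3 and 8.04. All 3 leading ER partners had higher levels than HSPA5 in both libraries.

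In mitochondria HSPA9 (mortalin), the HSP70 of that compartment, had levels of 181 and 141, the protease LONP1 78.2 and 92.0, DNAJA3 76.3 and 79.3, and HSCB was lowest with 10.5 and 9.86. Of the other HSP70 genes HSPA9 was also the highest, followed by HSPA4 with 71.2 and 52.2 and HYOU1 with 32.9 and 34.8, and the lowest was HSPA1L with 0.0855 and 0.102. HSPA8 and the sum of HSPA1A and HSPA1B thus each stood above these other HSP70 genes in both libraries.

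The 7 other heat-inducible genes listed, which leave out HSP90AA1, had levels below those of HSPA1B, HSP90AA1 and HSPA5. This did not hold for the inducible member HSPA1A, at 0.204 and 0.182 as the tables divide the pair. It was below DNAJB1, HSPH1, BAG3, HSPB1 and HSPB8, and above HSPA6 and CRYAB. DNAJB1, the HSP40 induced with HSPA1A and HSPA1B, had levels of 21.9 and 20.4, HSPH1 (HSP110) 15.0 and 13.0, BAG3 8.04 and 9.94, and HSPB1 (HSP27) 6.39 and 10.8. HSPB8 had 0.267 and 0.311, HSPA6, an HSP70 with little expression outside stress, 0.143 and 0.145, and CRYAB 0.0168 and 0.115. The median of the 7 was 8.59. Of the heat shock factors and their regulator, HSBP1 had 69.2 and 54.9, HSF2 38.1 and 26.6, HSF1 23.5 and 30.3 and HSF4 4.16 and 5.91. No gene of these lists that averaged 10 or more normalised counts differed over 2-fold between the libraries. Over all genes the share was only 5.23% at that mean and 1.18% at a mean of at least 100.

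**Figure D5:**
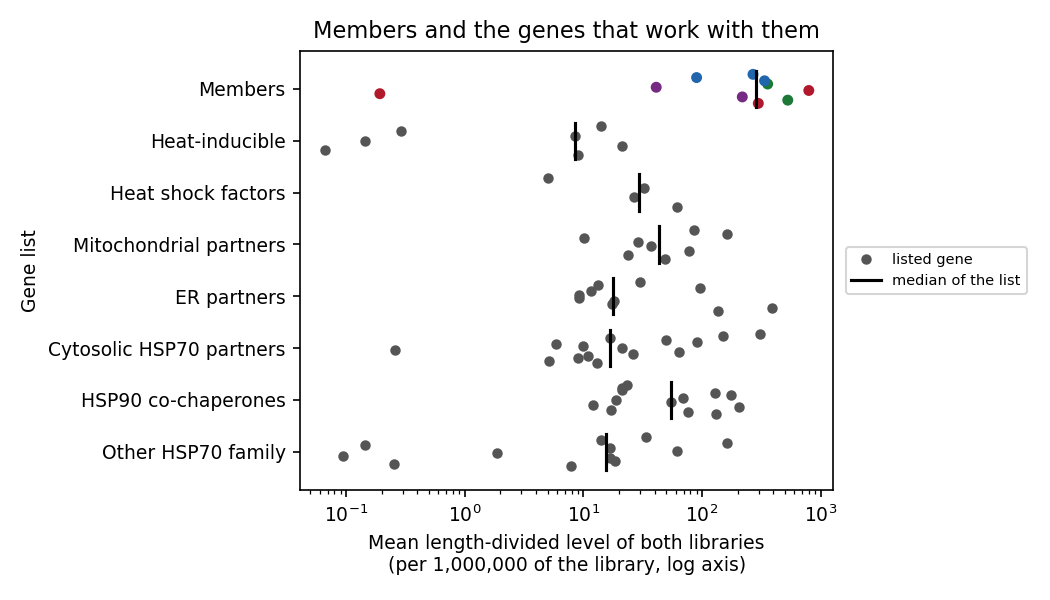
Mean length-divided level of both libraries (x axis, log axis) for the genes of each list and for the members, with 1 point a gene, members coloured by class (green constitutive, red inducible, purple ER, blue mitochondrial) and a black line at the median. The members have a median of 284, above that of every list, and the heat-inducible list has the lowest at 8.59.

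The libraries held 25158962 and 27143860 estimated counts. Of the markers checked, VIM, KRT8 and KRT18, expressed in HEK293, had mean levels of 307, 41.7 and 38.7. NEFM and PAX2 were low, at 0.281 and 0.694. PTPRC, CD3E, ALB and CDH5, markers of other cell types, were listed at 0 in both libraries. HBB, a marker of red cells, had 179 and 182 normalised counts and a mean level of 20.6, above NEFM and PAX2. The source of these HBB counts was not tested.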

How the data were processed

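Total RNA had been rRNA-depleted and made into TruSeq libraries from HEK293 Flp-In T-Rex cells, per the labels. The submitters' processing notes name FastQC, STAR 2.7.0d, RSEM 1.3.3 and R 3.6.3, and the study names Ensembl GRCh38. The deposited tables gave, per transcript, an expected (estimated) count, which the authors made with RSEM. RSEM shares out a read among the transcripts it matches. The second deposited value is a normalised signal that equals the estimated count over 1 size factor per library (0.945 and 1.08). A second pair of deposited tables, limited to METTL8, was not used here.

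Identifiers of 206696 transcripts were matched without version to GENCODE v44. This matched 202217 of them, with 96.9% and 96.8% of the counts. Of the 139 GENCODE v44 transcripts of the members 90 were listed, 66 of them in the same version, so lengths may differ from those used for counting. Levels were estimated counts divided by GENCODE v44 length, scaled to 1000000 per library without effective length correction. The analysis plan had foreseen length-normalised values. Shares used normalised counts.

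No test between groups was possible with 2 libraries of 1 group, and none was made. A pair of genes was called where its order was shared by the libraries and its means were further apart than the SDs added together. Differences between libraries used log2(normalised count + 1) of features with a mean of at least 10. The comparison was tested on simulated Poisson counts with planted changes. These hold no spread beyond counting error and no division of shared reads, so they are easier than the data and do not test either. Intervals are exact (Clopper-Pearson, 95%) on rounded counts. They cover counting error only, not the division of reads that match several transcripts. Members and lists were chosen with earlier results of these data known. All members, transcripts averaging 5% or more of their gene, the 3 highest pseudogenes, the 3 highest and the lowest gene of each list, and all heat-inducible genes and heat shock factors are named, and other transcripts, overlapping genes and sequence features were named after their values were seen. Alternatives changed the unit, transcripts, lengths, filters, pseudocount, pseudogenes and library. Python 3.11.15, pandas 2.3.3, numpy 2.4.6, scipy 1.17.1 and matplotlib 3.10.9 were used.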

Additional observations from a re-analysis of the deposited data

How the results depend on the processing

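Apart from settings that leave out a library, 43 of 58 values that answer a comparison were labelled the same. The other 15, all shares or log2 ratios, moved by more than 1 SD. Those labelled the same include counts of pairs, leaders and members, which have no SD and were compared as counts. None of the log2 ratios changed sign, and shares and counts could not. Without division by length the ER share was 10.7%, the mitochondrial share 18.2%, and the log2 ratios of HSP90AB1 to HSP90AA1, HSPA5 to HSP90B1 and HSPE1 to HSPD1 were 1.02, -1.76 and -3.76. With protein-coding transcripts only, the constitutive share was 32.3%, the mitochondrial share 21.5%, and the same ratios were 1.38, -2.04 and -1.69. With an effective length for fragments of 200 nt the mitochondrial share was 25.7%, the ratio of HSP90AB1 to HSP90AA1 was 0.64 and that of HSPE1 to HSPD1 was -1.48. Adding pseudogenes moved the latter to -1.76. Divided by length, the HSPA1A share of the pair was 0.0245%. Called pairs numbered 38 to 41 over all settings, and the 8 shared leaders and the 0 members past 2-fold were the same in each. With 2 libraries, each alone lies within 1 SD of the mean by construction. Levels follow the scale: HSPA1B was at 1735 with small and mitochondrial RNA left out of the total and at 389 with the effective length. Normalised counts are another unit and stand in the report. The HSPD1 to TRAP1 log2 ratio ran from 0.04 in replicate 2 to 0.57 in replicate 1.

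Copies on alternate haplotypes were not run for HSPA1A. No paired analysis was possible because there was 1 group. Depth limits transcripts near 0, and the annotation release, the strand setting and shared reads limit HSPA1A, HSPA1B, HSPD1 and HSPE1.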
